A study of Homo sapiens with 44 samples.

Results

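The stanniocalcin genes STC1 and STC2 were followed in ZR-75-1 cells, an established line of human breast cancer cells with receptors for estrogen and for progesterone. The members are the 2 genes whose symbols in the array annotation are STC1 and STC2, out of 14884 distinct symbols, and 13466 named genes on 41374 transcript clusters passed the filter on low values. Each gene was measured by 1 transcript cluster (17075553 for STC1, 17002898 for STC2), and both passed the filter, with levels above the 30th percentile of the array on 44 of 44 arrays. All cells came from the same line and were grown in wells of plates, and the labels number the replicates without saying whether they came from separate experiments, so that a p-value speaks only of the spread among arrays, which may be technical. Unprimed cells received ethanol vehicle for 72 h and vehicle again for 16 h. All other cells were pretreated with 10 nM estradiol (E2) for 72 h and are called E2p. Onto their medium was overlaid vehicle (VC) for 0, 4, 8 or 16 h, 10 nM progesterone (P4) for 4, 8 or 16 h, 10 nM medroxyprogesterone acetate (MPA) over the same 3 lengths, or for 16 h 10 nM E2 alone, E2 with 10 nM P4 (E2+P4) or E2 with 10 nM MPA (E2+MPA). The overlay did not remove the priming medium, so the E2p groups, vehicle controls included, still held the E2 of the pretreatment. There were 3 arrays in each of 13 groups and 5 arrays in E2p E2+P4 16 h.

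Stanniocalcins are secreted glycoprotein hormones, first known from fish, where they lower the uptake of calcium. In mammals they act mostly on the tissue that makes them, and both proteins can block the pappalysins, proteases that cut insulin-like growth factor (IGF) binding proteins and so release IGF. In breast cancer both genes are known from tumours that express the estrogen receptor, STC2 is known as an estrogen-responsive gene and a target of the integrated stress response, and STC1 is known as a gene induced by low oxygen.

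The steady state level of a transcript is given below on the log2 scale of the deposited values, on which a difference of 1 is a doubling, and levels are not compared between genes. A change is the difference of group means from a fit across all clusters, with its standard error (SE), and a gene is said to rise or fall where the adjusted p of the limma fit was at most 0.05. A share of clusters that rose or fell, or were higher or lower, counts only clusters called at that threshold. The median of an array lay between 5.52 and 5.67 and its interquartile range between 2.89 and 3.14. No 2 arrays correlated above 0.991. Of the luminal epithelial markers fixed for the line, 6 of 7 were in the annotation. All 6 were above the 30th percentile on every array, with medians from 7.58 to 11.6. Of the fibroblast markers 2 of 6 were in the annotation, DCN and LUM, and neither was above it on any array (medians 2.67 and 3.89). Of the endothelial markers, 3 of 5 were measured with medians from 5.04 to 5.42. VWF and KDR were above the 30th percentile on all 44 arrays and PECAM1 on 43. Of the immune cell markers, 2 of 5 were measured. CD14 had a median of 4.76 and was above that percentile on 40 arrays. CD68, a lysosomal gene, had a median of 8.33 and was above it on 44. PGR, the progesterone receptor gene and a known estrogen target, was at 9.75 ± 0.09 (SD, n = 3) in unprimed cells and at 11.9 ± 0.05 in E2p VC 16 h, which follows the labels.

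The sequence before the start of STC2 is shown because STC2 rose with E2 priming and fell with both progestins (below). Of the 2 genes STC2 matched an entry of the promoter table used and STC1 did not. RefSeq (GRCh38.p14) places the start on chromosome 5, and the 250 bases before it, chr5:173328415-173328664 on the minus strand, hold 63.6% G and C. Capitals mark the single match to a searched motif, the CCAAT box (CCAAT), which lies on the opposite strand from 100 to 96 bases before the start.
STC2 promoter: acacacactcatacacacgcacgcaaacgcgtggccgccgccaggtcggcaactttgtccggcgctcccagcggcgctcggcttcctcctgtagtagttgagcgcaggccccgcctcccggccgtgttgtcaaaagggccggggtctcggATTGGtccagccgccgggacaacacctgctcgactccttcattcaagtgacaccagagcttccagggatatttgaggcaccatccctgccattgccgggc
Both strands were searched, and 32.0% of 35116 RefSeq promoter windows of this length held a CCAAT box. The window held 0 matches to the half-site of the estrogen response element (GGTCA, in 32.6% of windows), to the half-site bound by the progesterone receptor and related receptors (AGAACA, in 12.4%), to the core of the hypoxia response element (ACGTG, in 18.5%) and to the composite element of ATF4 and C/EBP factors (TGATGNAA, in 3.14%). No match says only that these letters are not in this window.

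STC1 spanned a wide range. Its level ran from 5.84 on an array of E2p E2+MPA 16 h to 9.84 on an array of E2p VC 0 h, a 16.0-fold difference, and the range of its group means was larger than that of 99.9% of the clusters tested. The groups with vehicle or E2 overlays were at the top and the groups with 16 h of progestin at the bottom. By mean the order was E2p VC 0 h (9.79 ± 0.05), E2p E2 16 h (9.69 ± 0.09), E2p VC 16 h (9.49 ± 0.15), E2p VC 8 h (9.32 ± 0.06), E2p VC 4 h (9.02 ± 0.13), E2p P4 4 h (8.45 ± 0.14), E2p MPA 4 h (8.28 ± 0.19), unprimed VC 16 h (8.11 ± 0.05), E2p E2+P4 16 h (7.63 ± 0.85, n = 5), E2p P4 8 h (7.42 ± 0.10), E2p MPA 8 h (7.01 ± 0.13), E2p P4 16 h (6.63 ± 0.14), E2p MPA 16 h (6.33 ± 0.13) and E2p E2+MPA 16 h (6.01 ± 0.15), with n = 3 unless given. Neighbours overlapped among the first 4 groups and from E2p P4 4 h through to E2p P4 8 h, and the other neighbours had no array in common range.

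STC2 moved over a narrower range. Its level ran from 6.99 to 8.48, a 2.80-fold difference, and the range of its group means exceeded that of 88.2% of clusters. The order by mean was E2p VC 16 h (8.32 ± 0.18), E2p VC 0 h (8.23 ± 0.05), E2p VC 8 h (8.22 ± 0.04), E2p E2 16 h (8.00 ± 0.10), E2p VC 4 h (7.90 ± 0.26), unprimed VC 16 h (7.67 ± 0.16), and then the 8 groups that had received a progestin, with means from 7.25 ± 0.25 in E2p E2+MPA 16 h to 7.49 ± 0.15 in E2p P4 16 h. All of those 8 groups overlapped the next in order, and of the remaining neighbours only E2p VC 8 h and E2p E2 16 h did not overlap.

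**Figure D1:**
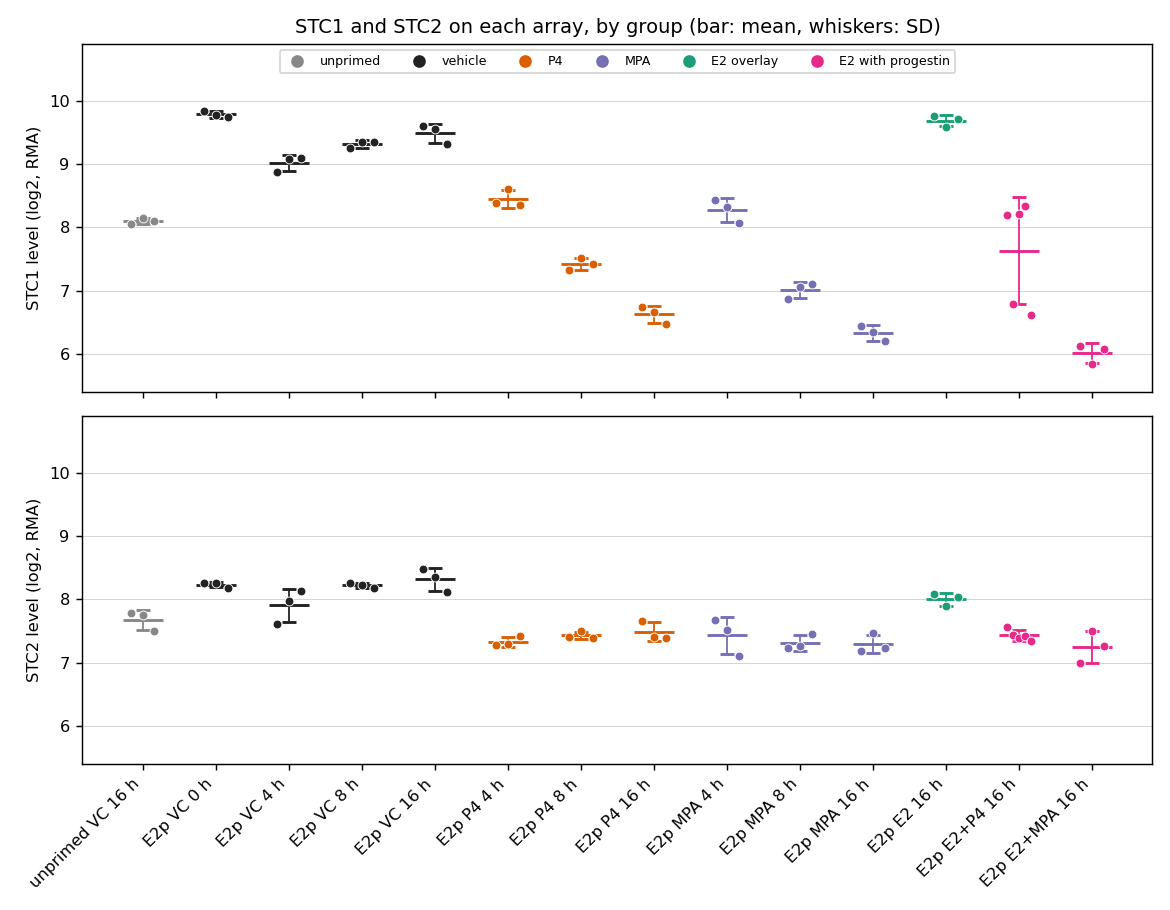
Log2 level of STC1 (top) and STC2 (bottom) on each of the 44 arrays, by group, with the group mean as a bar and the SD as whiskers. STC1 lies lower with each longer progestin overlay, from 8.45 to 6.63 for P4 and from 8.28 to 6.33 for MPA, while the 5 E2p E2+P4 16 h arrays lie apart at 6.62 and 6.79 and at 8.20 to 8.34.

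Estrogen priming raised both genes. STC1 was at 8.06, 8.16 and 8.10 on the unprimed arrays and at 9.60, 9.55 and 9.32 on the E2p VC 16 h arrays. The groups did not overlap, and STC1 rose by 1.38 ± 0.26 (SE), 2.61-fold, with an adjusted p of 0.000306, where 2.55% of clusters rose. In that comparison it was 46th among 13466 named genes by size of increase. STC2 was at 7.78, 7.75 and 7.49 without priming and at 8.48, 8.35 and 8.12 after it. STC2 rose by 0.64 ± 0.13, 1.56-fold, with an adjusted p of 0.000742, and the groups did not overlap. This call was lost when only the 6 arrays compared entered the fit (adjusted p = 0.078). Arrays measure a transcript against all RNA of a culture, so that fewer expressing cells and less RNA per cell cannot be told apart here or below. Other genes known as estrogen-induced, listed with these results known, moved with them: 13 of the 14 measured (of 15) rose and 1 fell (4.95% of clusters fell), with a median change of 0.99 against 0.01 over all clusters.

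Under vehicle alone the level of STC1 varied with the length of the overlay, without a call. STC1 was at 9.84, 9.78 and 9.74 on the 0 h arrays, at 8.88, 9.09 and 9.10 after 4 h, at 9.25, 9.35 and 9.35 after 8 h and at 9.60, 9.55 and 9.32 after 16 h. All 4 h arrays lay below all other primed vehicle arrays. The difference of 4 h from 0 h was -0.76 ± 0.26 with an adjusted p of 0.166, in a comparison in which 0.807% of clusters fell. The F-statistic over the vehicle overlays had an adjusted p of 0.410 for STC1 and 0.274 for STC2, and 1.94% of clusters passed it. STC2 was at 7.62, 7.97 and 8.12 after 4 h and between 8.12 and 8.48 on the other primed vehicle arrays, and its difference from 0 h at 4 h was -0.33 ± 0.13 (adjusted p = 0.266). The lowest STC1 and the lowest STC2 value of the 4 h vehicle belonged to the same array, replicate 1, which had the narrowest interquartile range of its group, 2.90 against 3.08 and 3.14. Leaving out 1 array at a time, the difference of 4 h from 0 h ranged from -0.81 to -0.69 for STC1. For STC2 it ranged from -0.44 to -0.18. The smallest difference of each gene was that without this array, and none of these fits gave a call. The labels also state another ethanol dilution for the 0 h overlay than for the later vehicle overlays. The wide spread of STC1 on the E2+P4 arrays, described below, enters the shared error of the fit. When those 5 arrays were left out of the fit, an alternative chosen after seeing the data, the SE of STC1 fell from 0.26 to 0.10, and the adjusted p of the vehicle F-statistic was 0.00015.

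The main comparison set each progestin against vehicle of equal length, and asked how an estrogen primed cell answers to P4 and to MPA over time. STC1 lay lower at each longer time. With P4 it was at 8.39, 8.61 and 8.36 after 4 h, at 7.32, 7.52 and 7.42 after 8 h and at 6.74, 6.66 and 6.47 after 16 h. The P4 arrays lay below every vehicle array of the same length at all 3 times. The change was -0.57 ± 0.26 at 4 h (adjusted p = 0.225, where 3.35% of clusters fell), -1.90 ± 0.26 at 8 h (adjusted p = 1.01e-06, where 7.22% fell) and -2.87 ± 0.26 at 16 h (adjusted p = 1.82e-10, where 7.92% fell), so that STC1 fell at 8 and 16 h and had no call at 4 h. At 16 h the level was 7.29-fold lower than under vehicle, with a 95% confidence interval of the log2 change from -3.39 to -2.34, and 4 named genes had a larger decrease.

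MPA gave the same order of times. STC1 was at 8.44, 8.33 and 8.07 after 4 h, at 6.87, 7.06 and 7.11 after 8 h and at 6.45, 6.35 and 6.20 after 16 h. Again no array overlapped the vehicle of the same length. The change was -0.75 ± 0.26 at 4 h (adjusted p = 0.0744, where 4.12% of clusters fell), -2.31 ± 0.26 at 8 h (adjusted p = 2.08e-08, where 7.96% fell) and -3.16 ± 0.26 at 16 h (adjusted p = 1.81e-11, where 9.26% fell). The last is 8.94-fold, also with 4 named genes above it. The missing calls at 4 h depended on the setting. With array weights MPA at 4 h had a call (-0.77, adjusted p = 0.0278). Without the E2+P4 arrays in the fit the adjusted p at 4 h was 0.000225 for P4 and 3.85e-06 for MPA, and against the 0 h vehicle, also chosen after seeing the data, the change was -1.33 (adjusted p = 0.000363) for P4 and -1.51 (adjusted p = 6.52e-05) for MPA.

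STC2 fell at all 3 times with both progestins. With P4 it was at 7.27, 7.30 and 7.42 after 4 h, at 7.40, 7.49 and 7.39 after 8 h and at 7.66, 7.41 and 7.40 after 16 h. Its change was -0.58 ± 0.13 at 4 h (adjusted p = 0.00229), -0.79 ± 0.13 at 8 h (1.88e-05) and -0.83 ± 0.13 at 16 h (8.06e-06), and no P4 array overlapped its vehicle. With MPA it was at 7.67, 7.52 and 7.10 after 4 h, at 7.22, 7.26 and 7.45 after 8 h and at 7.19, 7.46 and 7.24 after 16 h. Its change was -0.47 ± 0.13 at 4 h (0.0145), where 1 MPA array lay above the lowest vehicle array, -0.91 ± 0.13 at 8 h (1.77e-06) and -1.02 ± 0.13 at 16 h (1.94e-07). The 16 h levels were 1.77-fold lower with P4 and 2.03-fold lower with MPA. Both 4 h calls were lost when only the arrays compared entered the fit (adjusted p = 0.184 with P4 and 0.504 with MPA). The 4 h call with MPA also depends on single arrays: the adjusted p was 0.211 without MPA replicate 3, 0.143 without vehicle replicate 3 and 0.0699 without vehicle replicate 2.

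**Figure D2:**
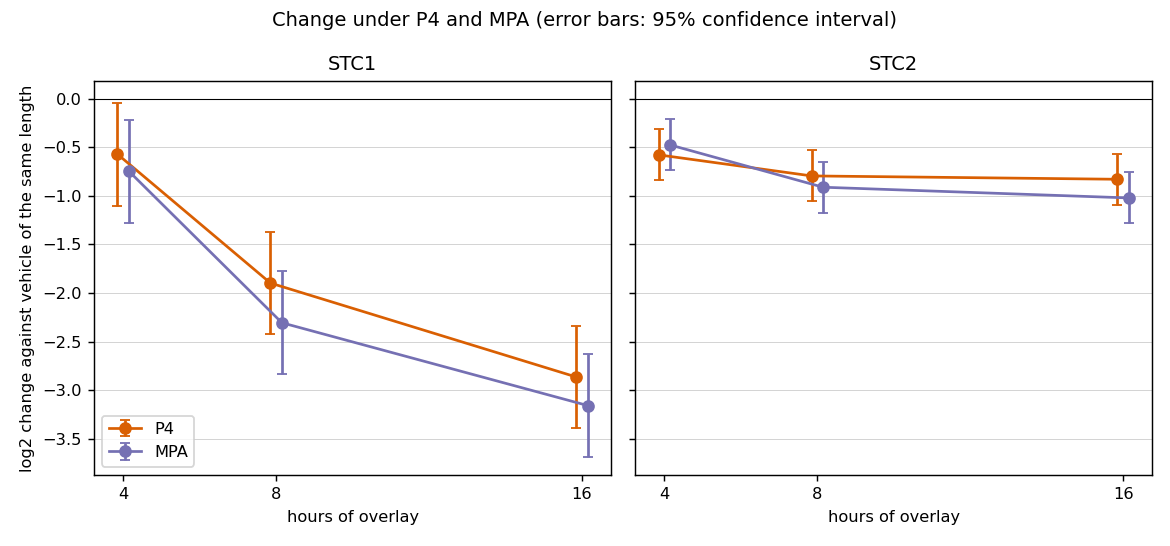
Log2 change of STC1 (left) and STC2 (right) against the vehicle of the same length after 4, 8 and 16 h of P4 or MPA, with 95% confidence intervals. STC1 runs from -0.57 to -2.87 with P4 and from -0.75 to -3.16 with MPA, and STC2 from -0.58 to -0.83 and from -0.47 to -1.02.

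The growth of the STC1 change with time was tested directly. The vehicle means moved as well, at 9.02, 9.32 and 9.49 after 4, 8 and 16 h, and this adds to the differences below. Against the 0 h vehicle alone the changes at 4, 8 and 16 h were -1.33, -2.37 and -3.16 with P4. With MPA they were -1.51, -2.77 and -3.45. The change at 16 h differed from that at 4 h by -2.30 ± 0.37 with P4 (adjusted p = 4.71e-05, where 3.28% of clusters were called lower) and by -2.41 ± 0.37 with MPA (adjusted p = 3.1e-05, where 2.33% were). From 4 to 8 h the difference was -1.33 ± 0.37 with P4 (adjusted p = 0.0476, where 1.02% were called lower) and -1.56 ± 0.37 with MPA (adjusted p = 0.0222, where 0.527% were). The first of these lost its call without any single one of its 12 arrays (adjusted p from 0.0527 to 0.127), and the second without 5 of 12 (from 0.0535 to 0.0667 where lost). From 8 to 16 h it was -0.97 ± 0.37 (adjusted p = 0.293, where 0.713% were called lower) and -0.85 ± 0.37 (adjusted p = 0.467, 0.682%). Without the E2+P4 arrays in the fit these p-values were 0.000149 and 0.000815, and those from 4 to 8 h were 1.43e-06 with P4 and 1.48e-07 with MPA. For STC2 no such difference passed. The largest was that of MPA between 4 and 16 h, -0.55 ± 0.18 (adjusted p = 0.0916), and with P4 it was -0.25 ± 0.18 (adjusted p = 0.573), with a 95% interval from -0.62 to 0.12. In the F-statistic over the P4 times against the 16 h vehicle, fitted on 12 arrays with a threshold of 0.0001 that 2.47% of clusters passed, the adjusted p was 1.96e-07 for STC1, which passed, and 0.000207 for STC2, which did not. With the 0 h vehicle as control it was 2.75e-08 and 5.33e-05, both past the threshold.

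After 16 h of progestin the primed cells did not return to the unprimed level of STC1 but lay under it. Against unprimed cells the change was -1.48 ± 0.26 with P4 (adjusted p = 4.29e-05, 10.8% of clusters lower), and -1.77 ± 0.26 with MPA (adjusted p = 2.27e-06, 13.4% lower). STC2 differed from the unprimed level by -0.19 ± 0.13 with P4 (adjusted p = 0.389, interval from -0.45 to 0.08) and by -0.38 ± 0.13 with MPA (adjusted p = 0.03). The latter lost its call without any of 4 of its 6 arrays, namely MPA replicates 1 and 3 and unprimed replicates 1 and 2 (adjusted p from 0.0845 to 0.134).

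MPA and P4 were compared at the same dose and times. MPA differs from P4 in structure by an added methyl group and an added acetoxy group. For STC1 the difference of MPA from P4 was -0.18 ± 0.26 at 4 h (95% interval from -0.70 to 0.35, adjusted p = 0.797), -0.41 ± 0.26 at 8 h (from -0.94 to 0.12, adjusted p = 1) and -0.29 ± 0.26 at 16 h (from -0.82 to 0.23, adjusted p = 0.755). STC1 was lower with MPA on every array at 8 and 16 h and overlapped at 4 h. For STC2 the differences were 0.10 ± 0.13 (from -0.16 to 0.36), -0.12 ± 0.13 (from -0.38 to 0.15) and -0.19 ± 0.13 (from -0.45 to 0.07), all with overlap. None of the 6 comparisons gave a call, in tests that called 6, 1 and 5 of all clusters at 4, 8 and 16 h (0.0145%, 0.00242% and 0.0121%). The intervals of STC1 rest on the shared error, which the E2+P4 arrays widen although they are in none of these comparisons. Without those arrays in the fit, chosen after seeing the data, the SE of STC1 was 0.10. Its moderated t-statistics then had p before adjustment of 0.0992, 0.000446 and 0.00803 at 4, 8 and 16 h. After adjustment these were 0.501, 0.471 and 0.411, still without a call.

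With fresh E2 in the overlay STC1 was lower with MPA than with P4 on every array, but the call depended on the arrays fitted. E2 alone left the genes near vehicle: STC1 was at 9.76, 9.59 and 9.71, a change of 0.20 ± 0.26 against vehicle, and STC2 at 8.08, 7.89 and 8.03, a change of -0.32 ± 0.13 (adjusted p = 1 for both, where 0.00483% of clusters had any call). Of STC2, no E2 array reached the lowest vehicle array. With E2+MPA STC1 was at 6.13, 5.84 and 6.07, lower than on any other array of the series. It fell by 3.67 ± 0.26 against E2, 12.8-fold, with an adjusted p of 4.49e-13, where 11.8% of clusters fell, and 1 named gene had a larger decrease. With E2+P4 it was at 8.20, 6.79, 8.22, 8.34 and 6.62, and fell by 2.05 ± 0.23 against E2, 4.15-fold, with an adjusted p of 2.69e-08, where 7.92% of clusters fell. The mean of 7.63 lay between 6.79 and 8.20, where there was no array. The SD of STC1 was 0.85 in this group and 0.12 pooled over the others. The shared SE and the p-values are therefore too small for STC1 in comparisons with E2+P4. Every E2+P4 array lay above every E2+MPA array, and the difference of E2+MPA from E2+P4 was -1.62 ± 0.23 (adjusted p = 1.82e-05, where 3.42% of clusters were lower), again with 1 named gene beyond it. That call was lost when only the arrays compared entered the fit (SE 0.42, adjusted p = 0.147). E2+P4 replicates 2 and 5 lay nearer to the E2+MPA arrays than replicates 1, 3 and 4 did.

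STC2 gave no such split. It was at 7.57, 7.43, 7.39, 7.42 and 7.35 with E2+P4 and at 6.99, 7.50 and 7.26 with E2+MPA, and fell by 0.57 ± 0.12 (adjusted p = 0.000451) and by 0.75 ± 0.13 (adjusted p = 2.82e-05) against E2. The difference of E2+MPA from E2+P4 was -0.18 ± 0.12, with an interval from -0.42 to 0.05 (adjusted p = 0.536), and the groups overlapped.

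The effect of fresh E2 beside each progestin was read from the groups with and without it. The level of STC1 with E2+P4 differed from that with P4 alone by 1.01 ± 0.23, 2.01-fold, the second largest increase among named genes, but with an adjusted p of 0.219 in a comparison that called 0 of 41374 clusters, and the groups overlapped. That value became a call without E2+P4 replicate 2 (1.22, adjusted p = 0.0127) or without replicate 5 (1.26, adjusted p = 0.00356). Against MPA alone E2+MPA was at -0.32 ± 0.26 (adjusted p = 0.836, where 0.87% of clusters were lower), with no overlap of arrays. For STC2 these differences were -0.06 ± 0.12 and -0.04 ± 0.13. Whether a progestin acted differently with fresh E2 than without it was tested as an interaction. For STC1 it was 0.81 ± 0.35 for P4 (interval from 0.10 to 1.52, adjusted p = 0.79, where 0% of clusters were called higher). For MPA it was -0.51 ± 0.37 (interval from -1.26 to 0.23, adjusted p = 0.931, where 0.0773% were called lower). Because of the wide spread of the E2+P4 arrays, the SE of STC1 is too small in both comparisons with E2+P4. For the same reason the interval of the P4 interaction is too narrow. The MPA interaction holds no E2+P4 array, and that spread widens its interval. In the fit without those arrays the MPA interaction of STC1 had an SE of 0.15. Its moderated t-statistic had a p of 0.00143 before adjustment and 0.16 after it. For STC2 the interaction was 0.26 ± 0.17 and 0.27 ± 0.18, without a call.

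**Figure D3:**
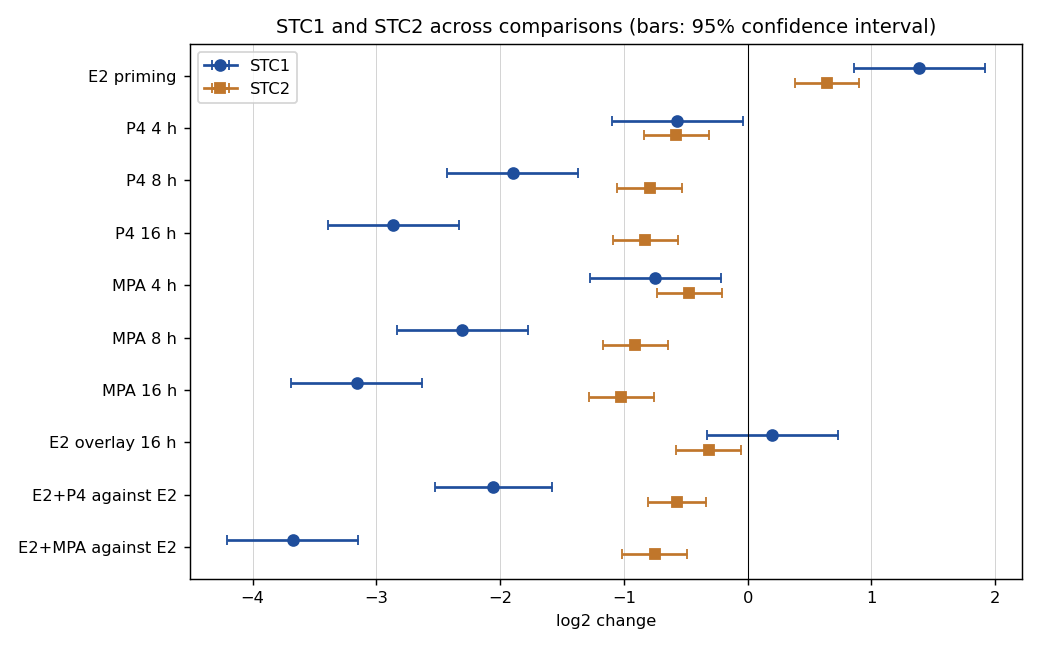
Log2 change of STC1 (circles) and STC2 (squares) in 10 comparisons, with 95% confidence intervals: E2 priming, P4 and MPA against the vehicle of the same length, an E2 overlay against vehicle, and E2+P4 and E2+MPA against E2. The points coincide at P4 4 h (-0.57 and -0.58) and lie farthest apart at E2+MPA against E2 (-3.67 and -0.75). The STC1 interval of E2+P4 against E2 rests on the shared error and is too narrow for the spread of those arrays.

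The 5 arrays of E2p E2+P4 16 h did not agree on STC1. Replicates 1, 3 and 4 were at 8.20, 8.22 and 8.34, near the unprimed level, and replicates 2 and 5 at 6.79 and 6.62, near the level with P4 alone. The SD of 0.85 was larger than that of 99.4% of clusters in the group, whereas the SD of STC1 pooled over the other groups was 0.12. STC2 had an SD of 0.08 on the same arrays, larger than that of 10.5% of clusters. Other genes of the hormone response also lay lowest on replicates 2 and 5, by less, and GREB1 hardly beyond its usual spread. PGR was at 8.92 and 8.71 there and at 9.20, 9.53 and 9.43 on replicates 1, 3 and 4. ESR1, the estrogen receptor gene, was at 7.64 and 7.45 against 7.73, 7.83 and 8.11. GREB1, an estrogen receptor cofactor and target, was at 11.5 and 11.4 against 11.6 on each of the others. The SD of GREB1 was 0.08 here and 0.07 pooled over the other groups, against 0.35 and 0.10 for PGR and 0.24 and 0.11 for ESR1. The interquartile ranges, 3.00 and 2.96 on replicates 2 and 5 and 2.90, 3.01 and 3.01 on the others, did not separate these arrays. No label tells them apart, and what else differs between the wells was not tested.

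**Figure D4:**
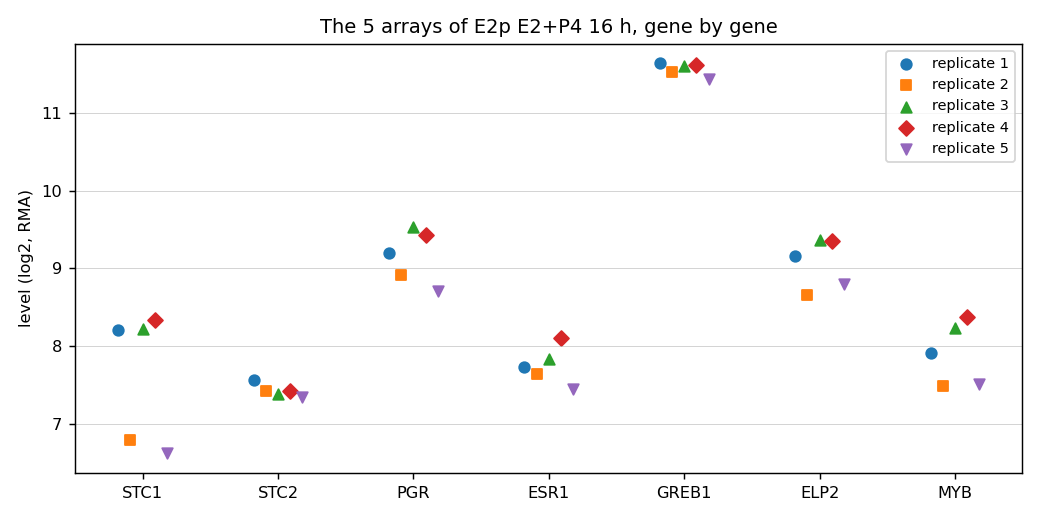
Log2 level of STC1, STC2, PGR, ESR1, GREB1, ELP2 and MYB on each of the 5 arrays of E2p E2+P4 16 h, with a symbol for each replicate. Replicates 2 and 5 are the lowest of the 5 for every gene shown other than STC2, and the gap is widest for STC1, between 6.79 and 8.20.

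Whether the 2 genes changed unequally was tested within arrays, on the level of STC1 minus that of STC2, with two-sided exact permutation tests. With P4 over 4, 8 and 16 h, permuted within times, the change of STC1 minus that of STC2 was -1.05 on the log2 scale over 9 against 9 arrays, with an exact permutation p of 0.003 (0.0345 after adjustment over the 23 differences tested). With MPA it was -1.27, with an exact permutation p of 0.00025, the smallest these permutations can give (0.00575 after adjustment). By time the difference was 0.01, -1.10 and -2.04 with P4 at 4, 8 and 16 h, and -0.27, -1.40 and -2.14 with MPA. Single comparisons of 3 against 3 arrays cannot go below an exact permutation p of 0.1. That value was reached at 8 and 16 h with P4, at all 3 times with MPA, for priming (0.74) and for E2+MPA against E2 (-2.93). It was also reached without a progestin, for the vehicle at 4, 8 and 16 h against 0 h (-0.44, -0.46 and -0.38) and for E2 against vehicle (0.51), as well as for MPA against P4 at 8 h (-0.29) and for P4 and MPA at 16 h against unprimed cells (-1.29 and -1.40), while P4 at 4 h had an exact permutation p of 0.9.

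Over the 14 group means STC1 and STC2 correlated at 0.860, and over the 44 arrays at 0.808, as a description, since groups share hormones and controls. By that measure STC2 was 588th among 13466 named genes in likeness to STC1. With PGR the correlation over groups was 0.956 for STC1 and 0.774 for STC2, with ESR1 0.870 and 0.831, and with GREB1 0.03 and -0.05. GREB1 rose with priming from 8.13 to 11.6 and stood at 11.4 after 16 h of P4, without a call. At 4 and 8 h GREB1 rose by 0.36 and 0.41 with P4, where 4.55% and 6.06% of clusters rose. With MPA it rose by 0.34 and 0.44, where 4.16% and 6.3% rose, and it had no call at 16 h. With E2+MPA against E2 it fell (-0.31), where 11.8% of clusters fell.

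The named genes whose group means were most like those of STC1 were PSPH, an enzyme of serine synthesis (r = 0.982), ELP2, a subunit of the Elongator complex (0.982), CPT1C, the brain form of carnitine palmitoyltransferase (0.981), HHIPL2 (0.980), STARD10, a lipid transfer protein (0.964), and MYB, a transcription factor (0.963). They fell with P4 at 16 h by less than STC1, from -0.44 for PSPH to -1.69 for MYB. All 6 were lowest on E2+P4 replicates 2 and 5, the arrays on which STC1 was low. For PSPH and CPT1C this order is within the usual spread, with an SD there of 0.06 and 0.13 against 0.10 and 0.12 pooled over the other groups. For ELP2, HHIPL2, STARD10 and MYB the SD was 0.32, 0.24, 0.21 and 0.40 against 0.09, 0.11, 0.09 and 0.12. The E2+P4 mean is among the group means by which these genes were picked. The most opposite were ETHE1, a mitochondrial sulfur dioxygenase (-0.977), ZFHX3, a transcription factor (-0.976), and MIR22HG, the host gene of a microRNA (-0.975), which rose with P4 at 16 h by 0.98, 1.40 and 1.09, and which were highest on those 2 arrays.

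Other genes stood closest to STC2. They were ELOVL4, a fatty acid elongase (0.957), SPOP, a ubiquitin ligase adaptor (0.949), SHROOM2, an actin-binding protein (0.946), TROAP (0.944), WT1, a transcription factor (0.939), and HEY2, a repressor of the Notch pathway (0.937). Of these HEY2 rose with priming by 1.45 and fell with P4, with changes of -1.31 at 4 h and -1.99 at 16 h. SPOP and HEY2 were lowest on E2+P4 replicates 2 and 5, and ELOVL4, SHROOM2, TROAP and WT1 were not. The most opposite were the growth factor gene EGF (-0.950), LPCAT3, an enzyme of phospholipid remodelling (-0.948), and the transcription factor gene GATA6 (-0.948). EGF rose by 2.18 at 4 h of P4, where 4.55% of clusters rose, and by 1.84 at 16 h. EGF and GATA6 were highest on E2+P4 replicates 2 and 5. Their SD on the E2+P4 arrays was 0.16 and 0.33, against 0.11 and 0.10 pooled over the other groups. LPCAT3 was lowest on those 2 replicates, within its usual spread (SD 0.04 against 0.06).

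Genes of the pathways around the stanniocalcins were read from lists chosen with earlier results known. Of the pappalysin and IGF axis 9 of 13 genes were measured. With priming 2 rose and 0 fell, beside 2.55% and 4.95% of clusters (median change 0.30 against 0.01 over all clusters). With P4 at 16 h 1 rose and 3 fell, beside 7.91% and 7.92% of clusters (median -0.09 against -0.01). IGFBP4, the binding protein that pappalysin cuts, rose with priming from 10.6 to 11.8 (1.20 ± 0.08) and fell with P4 at 16 h to 10.7 (-1.05 ± 0.08). IGF1R, the IGF receptor, rose with priming by 0.91 ± 0.09 and fell with P4 (-1.25 ± 0.09). IGFBP5, another binding protein and pappalysin substrate, fell with P4 (-1.54 ± 0.07), with a change of 0.13 at priming that had no call. IGF2R, a scavenger of IGF, rose with P4 by 0.31 ± 0.09. At 4 h of P4 none of the 9 had a call, where 7.9% of all clusters had one. With MPA at 16 h, where 6.72% of clusters rose and 9.26% fell, the counts were again 1 up and 3 down. The changes of IGFBP4, IGFBP5 and IGF1R were -1.36, -1.54 and -1.12.

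Among genes of calcium and phosphate handling 7 of 24 were measured, of which 0 changed with priming and 2 rose and 2 fell with P4 at 16 h (median 0.11). Of all clusters 2.55% rose and 4.95% fell with priming, and 7.91% rose and 7.92% fell with P4 at 16 h. ORAI3, a store-operated calcium channel, fell (-0.999 ± 0.12), as did XPR1, the phosphate exporter (-0.33 ± 0.06), while ORAI1, a related channel, rose by 0.47 ± 0.09 and STIM1, the sensor that opens such channels, by 0.28 ± 0.08. Of calciotropic hormones and their receptors 5 of 10 were measured, and 1 had a call. This was KL, the coreceptor of the phosphate hormone FGF23, which was at 8.37 in unprimed cells, at 7.54 after priming and at 8.70 after 16 h of P4, opposite to STC1 and STC2 in both comparisons (-0.83 ± 0.09 and 1.15 ± 0.09).

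The stress programmes known to raise the stanniocalcins were read in the same way. Of the integrated stress and unfolded protein response 10 of 14 genes were measured, and 3 rose and 3 fell with P4 at 16 h (median -0.03). In that comparison 7.91% of all clusters rose and 7.92% fell. VLDLR, a lipoprotein receptor, rose by 1.87 ± 0.13 and the stress sensor ERN1 by 0.43 ± 0.14, whereas SESN2, a nutrient sensor, fell (-0.43 ± 0.09), as did PSAT1, an enzyme of serine synthesis (-0.39 ± 0.13). Of genes induced by low oxygen 8 of 12 were measured, and 4 rose and 0 fell with P4 at 16 h (median 0.20), while STC1 fell. At 4 and 8 h of P4 2 and 3 of them rose, beside 4.55% and 6.06% of clusters. With MPA at 4, 8 and 16 h 2, 4 and 3 rose, beside 4.16%, 6.3% and 6.72%. In each of these comparisons 0 of them fell, where 3.35%, 7.22%, 4.12%, 7.96% and 9.26% of clusters fell, in the same order. Against E2, 2 rose and 1 fell with E2+P4, beside 5.95% and 7.92% of clusters. With E2+MPA 3 rose and 1 fell, beside 8.04% and 11.8%. With P4 at 16 h NDRG1, a stress-responsive gene, was higher by 1.33 ± 0.14, the mitophagy gene BNIP3 by 0.96 ± 0.07 and lactate dehydrogenase gene LDHA by 0.51 ± 0.12. With priming BNIP3 and ANKRD37 fell (-0.31 ± 0.07 and -0.39 ± 0.12).

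The estrogen-induced genes, of which 13 rose with priming, fell in part under the progestin: 9 of 14 fell and 1 rose with P4 at 16 h (median -0.62), and 8 fell and 0 rose with MPA at 16 h, beside 7.92% and 9.26% of all clusters that fell. In these comparisons 7.91% and 6.72% of all clusters rose. At 8 h both directions were seen, with 7 that fell and 5 that rose with P4 (median -0.35) and 8 and 3 with MPA (median -0.37). Of all clusters 7.22% fell and 6.06% rose with P4 at 8 h, and 7.96% and 6.3% with MPA. At 4 h 3 fell and 2 rose with P4, beside 3.35% and 4.55% of all clusters, and 4 fell and 2 rose with MPA, beside 4.12% and 4.16%. PGR fell with P4 (-3.05 ± 0.13), as did the scaffold protein gene PDZK1 (-2.40 ± 0.18), next to -2.87 for STC1 and -0.83 for STC2. GFRA1, a receptor for a neurotrophic factor, rose by 2.81 ± 0.15 with priming and had a change of 0.13 ± 0.15 with P4, without a call.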

How the data were processed

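The 44 samples of ZR-75-1 cells were hybridised to 1 Affymetrix Gene ST array each. The deposited values are log2 levels of transcript clusters, which the authors made with RMA (background correction, quantile normalisation and summarisation of probes). The submitters' processing notes name RMA and limma, with no version. Gene names come from an annotation of the Gene 2.0 ST design, to which the identifiers matched although the labels say Gene 1.0 ST, and a value belongs to its gene only as far as that match holds. Clusters were tested where 3 or more arrays gave a value over their own 30th percentile. One limma fit (version 3.58.1, R 4.3.3) of the means of 14 groups left 30 residual degrees of freedom and was read with two-sided moderated t-statistics and Benjamini-Hochberg adjustment over 41374 clusters, at 0.05. The P4 time course F-statistic used 12 arrays and 0.0001. Where p is called exact, it is from a permutation over arrays. The fit was tested on simulated data. The number of arrays limits the precision. Genes, lists and tests were chosen with earlier results of these data known. Named beside STC1 and STC2 are ESR1, PGR and GREB1, the 6 most alike and 3 most opposite genes for each and up to 4 members per list with the largest change past the threshold for priming or for P4 at 16 h. Alternatives were filters, array weights, scaling, the interquartile range as covariate, eBayes settings, the arrays in the fit, the control group, the replicate number as block and leaving out each array.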

Additional observations from a re-analysis of the deposited data

Results flagged for a closer look

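The effect of progestin on STC1 differed between time points by the test of the difference itself. With P4 the change at 8 h differed from that at 4 h by -1.33 (adjusted p = 0.0476) and the change at 16 h from that at 4 h by -2.30 (adjusted p = 4.71e-05). With MPA these differences were -1.56 (adjusted p = 0.0222) and -2.41 (adjusted p = 3.1e-05). The lowest 4 h vehicle array (replicate 1) stands in each of them, and without it the differences between 8 and 4 h were -1.25 (adjusted p = 0.127) with P4 and -1.49 (adjusted p = 0.0578) with MPA. In the group of 5 arrays, the gap of the most distant array over the range was 0.099 for STC1 and 0.642 for STC2, under the critical value of 0.710, since STC1 had 2 low arrays there and no single one.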

How the results depend on the processing

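Every fall of STC1 at 8 and 16 h against vehicle and its rise with priming kept direction and call under every alternative run, and so did the falls of STC2 at 8 and 16 h. Without a filter, STC1 P4 8 h against 4 h was -1.33 (adjusted p = 0.0633). With array weights STC1 had calls for MPA 4 h (-0.77) and P4 16 h against 8 h (-1.02), and STC2 for MPA 16 h against 4 h (-0.50), the vehicle F-statistic (adjusted p = 0.0419) and the P4 F-statistic (6.17e-06). With the interquartile range as covariate, STC2 in E2+P4 against P4 turned to 0.0339, STC1 P4 8 h against 4 h was -1.28 (adjusted p = 0.0559), STC2 MPA 16 h against 4 h was -0.51 (0.0433), and STC2 with MPA against unprimed was -0.13 (0.575). With scaled arrays, STC1 P4 8 h against 4 h was -1.28 (0.0589), and the difference of STC1 and STC2 at P4 4 h turned from 0.01 to -0.00117. With trend and robust settings the P4 F-statistic of STC2 was 4.19e-05, and with all 44 arrays in the fit 3.39e-07.

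With only the compared arrays in the fit, calls were lost for STC2 with priming (0.64, adjusted p = 0.078), P4 4 h (-0.58, 0.184), MPA 4 h (-0.47, 0.504) and MPA against unprimed (-0.38, 0.0826), and for STC1 in E2+MPA against E2+P4 (-1.62, 0.147), while STC1 gained calls for P4 16 h against 8 h (-0.97, 0.0132), MPA 16 h against 8 h (-0.85, 0.0473) and the vehicle F-statistic (0.0421). Such fits have fewer degrees of freedom. Added after seeing the data, the fit without the E2+P4 arrays called STC1 at P4 4 h (-0.57), MPA 4 h (-0.75), P4 16 h against 8 h (-0.97), MPA 16 h against 8 h (-0.85) and over the vehicle times (0.00015). The 0 h vehicle as control called STC1 at P4 4 h (-1.33) and MPA 4 h (-1.51), and STC2 over the P4 times (5.33e-05).

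The labels number replicates alike across groups, but same-numbered arrays deviated together in only 20 of 63 pairs (correlation over 0.1, median 0.04), and 2 of 21 comparisons had all pairs over it, MPA against P4 at 8 h and E2+MPA against E2+P4. In those 2 the replicate block changed no call of STC1 or STC2. For the others the labels do not say whether same-numbered arrays belong together. With the replicate block, in which E2+P4 replicates 4 and 5 have no partner and do not enter, STC1 gained calls for MPA 4 h (-0.75, adjusted p = 0.0146) and E2+P4 against P4 (1.11, 0.0244).

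Leaving out 1 array at a time, STC1 ranged from -1.38 to -1.25 for P4 8 h against 4 h, from -1.67 to -1.48 for MPA 8 h against 4 h and from 0.83 to 1.26 for E2+P4 against P4. STC2 ranged from -0.62 to -0.31 for MPA 4 h, from -0.47 to -0.33 for MPA against unprimed, from -0.71 to -0.40 for MPA 16 h against 4 h, from -0.17 to 0.0845 for E2+MPA against MPA, from -0.10 to 0.0283 for E2+P4 against P4, from -0.0199 to 0.27 for MPA against P4 at 4 h, from -0.13 to 0.05 for P4 16 h against 8 h and from -0.0374 to 0.00988 for the vehicle at 8 h against 0 h. STC1 minus STC2 ranged from -0.0885 to 0.10 for P4 4 h, from -1.66 to -1.25 for E2+P4 against E2, from -1.67 to -1.23 for E2+MPA against E2+P4 and from 0.89 to 1.30 for E2+P4 against P4. The cause of these changes was not tested. The number of clusters called, and with it each share of clusters, moved with the alternatives (the reported number in parentheses): 962 to 6258 (3102) for priming, 735 to 5636 (3270) for P4 4 h, 4748 to 8952 (5493) for P4 8 h, 3563 to 11510 (6549) for P4 16 h, 490 to 6449 (3427) for MPA 4 h, 2633 to 10439 (6611) for MPA 16 h, 0 to 10 (6) for MPA against P4 4 h, 0 to 16 (1) for MPA against P4 8 h and 2 to 65 (5) for MPA against P4 16 h. It was 1 to 656 (2) for E2 against vehicle, 2971 to 7070 (5738) for E2+P4 against E2, 18 to 3675 (2517) for E2+MPA against E2+P4, 0 to 18 (0) for E2+P4 against P4, 0 to 1914 (921) for E2+MPA against MPA, 1 to 40 (4) for the interaction of P4 with E2 and 1 to 1022 (97) for that of MPA. It was 380 to 2233 (898) for P4 8 h against 4 h, 351 to 2092 (539) for P4 16 h against 8 h, 1224 to 5784 (2775) for P4 16 h against 4 h, 82 to 1007 (480) for MPA 8 h against 4 h, 152 to 1046 (441) for MPA 16 h against 8 h, 414 to 3654 (1812) for MPA 16 h against 4 h, 0 to 1950 (624) for vehicle 4 h against 0 h, 352 to 1839 (587) for vehicle 8 h against 0 h and 0 to 2769 (426) for vehicle 16 h against 0 h. For MPA 8 h, E2+MPA against E2 and both progestins against unprimed cells it stayed within 1.5 times. No other cluster carried either symbol, so that alternative could not be run.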
